A study of Mus musculus with 23 samples.

Results

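The nucleosome remodeling and deacetylase (NuRD) complex was followed through its core subunits other than the deacetylases, in late zygotes and 2-cell embryos of mouse that had received siRNA as oocytes. The members were 10 genes (Chd4, Gatad2a, Gatad2b, Mta1, Mta2, Mta3, Mbd2, Mbd3, Rbbp4 and Rbbp7) of 22619 named genes, and all 10 were found by gene name, with 15 transcripts. They were chosen as a complex, selected on the FPKM of Gatad2a and Chd4, which had been seen to be low in siMlx zygotes, so the values of that comparison are given as a description, without a test. The study asked what the transcription factors MLX and RFX1 do at zygotic genome activation, and took ETV5 as its negative control. The groups were zygotes (labelled 14 h after fertilization) and 2-cell embryos (labelled 36 h, and the study's methods give later hours for both stages), each injected with a control siRNA (siCtrl) or with siRNA against Etv5 (siEtv5), Mlx (siMlx) or Rfx1 (siRfx1), with 3 libraries per group and 2 for siEtv5 2-cell embryos, 23 in all. The labelled strain was B6D2F1 (C57BL/6xDBA/2), which per the study's methods was that of the females, while the sperm came from C57BL/6 males. In all groups, siCtrl included, oocytes at the germinal vesicle stage were injected and matured in vitro. The labels describe fertilization by incubation with sperm and the methods by injection of a sperm head. The siRNA acts in the whole oocyte and embryo and lowers a transcript without removing a maternal protein, which limits each KD group as a model of loss of the factor. The methods describe RNA-seq as repeated experiments, and the labels do not say which embryos went into which replicate, so the p-values reflect how far these libraries differ within a group.

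NuRD joins nucleosome remodeling and histone deacetylation in 1 complex. CHD4 is its ATPase, MTA1, MTA2 and MTA3 are alternative scaffolds that hold the deacetylases, GATAD2A and GATAD2B are alternative subunits that link CHD4 to the rest, MBD2 and MBD3 are alternative methyl-CpG-binding-domain subunits, and RBBP4 and RBBP7 are histone-binding WD40 proteins shared with other chromatin complexes. A mature oocyte is loaded with maternal transcripts, and the first large rise of embryonic transcription in mouse takes place at the 2-cell stage, while maternal transcripts are being cleared.

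Because each siRNA targeted a factor with a known DNA motif, the 250 bases before the annotated starts were read from the mm9 genome and searched on both strands for the E-box CACGTG (the kind of site MLX and its partners bind), the ETS core CCGGAAGT (the ETV family) and the X-box core GTTGCC (the RFX family). Capitals mark the motifs in 4 of these windows, each 5′ to 3′ on the strand of the gene. The Chd4 window (chr6:125045931-125046180, plus strand) held the X-box letters 3 times, 146, 172 and 219 bases before the start. The Mta2 window (chr19:9016160-9016409, plus strand) held the ETS letters 26 bases before the start, and the Rbbp4 window (chr4:129012615-129012864, minus strand) held the E-box letters 224 bases before it. The window of the long Gatad2a transcript (chr8:72520279-72520528, minus strand) held none of these letters. It is given because coverage of the last exon of this gene differed between siMlx and siCtrl zygotes.
Chd4: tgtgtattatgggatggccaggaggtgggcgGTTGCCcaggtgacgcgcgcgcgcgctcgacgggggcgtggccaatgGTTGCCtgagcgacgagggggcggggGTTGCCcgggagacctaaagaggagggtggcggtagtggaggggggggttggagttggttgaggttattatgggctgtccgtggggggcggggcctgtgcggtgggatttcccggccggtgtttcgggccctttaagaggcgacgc
Mta2: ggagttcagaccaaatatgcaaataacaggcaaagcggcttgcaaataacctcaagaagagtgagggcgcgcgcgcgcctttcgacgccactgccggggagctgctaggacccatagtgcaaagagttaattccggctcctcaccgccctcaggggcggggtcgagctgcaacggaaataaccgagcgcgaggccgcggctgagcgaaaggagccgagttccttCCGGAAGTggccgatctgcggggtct
Rbbp4: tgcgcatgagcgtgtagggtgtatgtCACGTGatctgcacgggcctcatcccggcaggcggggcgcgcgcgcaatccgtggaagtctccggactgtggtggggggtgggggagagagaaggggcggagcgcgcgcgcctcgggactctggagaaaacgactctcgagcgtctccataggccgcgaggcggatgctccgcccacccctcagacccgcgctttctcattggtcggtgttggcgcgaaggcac
Gatad2a: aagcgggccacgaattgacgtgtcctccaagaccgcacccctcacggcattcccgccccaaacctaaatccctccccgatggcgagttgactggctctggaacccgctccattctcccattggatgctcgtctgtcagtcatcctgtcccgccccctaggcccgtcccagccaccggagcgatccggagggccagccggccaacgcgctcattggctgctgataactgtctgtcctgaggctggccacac
No match was found in the windows of Gatad2b, Mta1, Mta3, Mbd3 and Rbbp7 or at the second Gatad2a start. The Mbd2 window was not analysed here. Over 24609 promoter windows of the same length, GTTGCC was present in 9.66%, CACGTG in 6.72% and CCGGAAGT in 3.84%. These matches are descriptions of the letters and were not tested as binding sites.

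Values are FPKM, fragments per kilobase of transcript, scaled to the mapped fragments of the library, as deposited, summed over the transcripts of a gene. Aligned bases per library were 404 to 991 Mb, except in the 3 siRfx1 2-cell libraries, which stood apart at 119 to 174 Mb and had 7378 to 8071 genes at 1 FPKM or more, against 8904 to 11135 in the other 2-cell libraries and 8354 to 9350 in zygotes. Reads covered the genes unevenly. Among transcripts at a mean of 5 FPKM or more, 79.9 to 96.0% of exons of up to 200 bases had no coverage in a library, against 7.79 to 30.6% of exons above 300 bases. The targeted genes were lower in their KD groups: Etv5 stood at 43.7 to 49.3 FPKM in siCtrl 2-cell embryos and 5.55 to 8.98 in siEtv5, Rfx1 at 3.05 to 3.52 in siCtrl zygotes and 0.149 to 0.481 in siRfx1, and Mlx at 1.84 to 4.25 in siCtrl zygotes and 0 to 0.469 in siMlx. Mlx overlapped between siCtrl (2.42 to 4.42 FPKM) and siMlx (0.836 to 4.05) at the 2-cell stage. Targets were also below siCtrl in some groups that received another siRNA. Etv5 was at 6.73 to 12.6 FPKM in siRfx1 2-cell embryos. Rfx1 was at 0.863 to 1.33 in siMlx zygotes. At the 2-cell stage Rfx1 was at 1.85 to 2.88 in siMlx and 4.39 to 4.94 in siEtv5, against 8.12 to 10.7 in siCtrl. Mlx was at 21.5, 0 and 0 FPKM in siRfx1 2-cell embryos, on both sides of siCtrl and with no library within its range. In the remaining groups with another siRNA, the target overlapped siCtrl. Summed over 13 oocyte and early embryo markers, zygotes stood at 5827 to 15318 FPKM and 2-cell embryos at 2405 to 6599.

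NuRD core transcripts were dominated by Rbbp7 in zygotes and were shared between Rbbp7 and Mta2 at the 2-cell stage. The 10 genes summed to 583 to 1243 FPKM in the zygote libraries, of which Rbbp7 made up 75.2 to 92.7%. In the 2-cell libraries they summed to 299.7 to 583 FPKM, of which Rbbp7 made up 36.8 to 64.0%. In siCtrl zygotes the order of mean levels per length was Rbbp7 (712 FPKM), Gatad2a (76.1), Gatad2b (63.9), Chd4 (26.6), Mta3 (23.9), Mbd3 (10.6), Rbbp4 (6.65), Mta1 (5.91), Mbd2 (1.95) and Mta2 (1.19). The ranges of Gatad2a and Gatad2b, of Chd4 and Mta3, of Rbbp4 and Mta1, and of Mbd2 and Mta2 overlapped between neighbours, and the other neighbours were apart in all 3 libraries. In siCtrl 2-cell embryos the order was Rbbp7 (189 FPKM), Mta2 (113), Gatad2a (44.3), Gatad2b (38.6), Rbbp4 (18.3), Mbd3 (18.2), Chd4 (13.3), Mta1 (5.10), Mta3 (4.47) and Mbd2 (0.369). There Gatad2a and Gatad2b, Rbbp4 and Mbd3, Mbd3 and Chd4, and Mta1 and Mta3 overlapped. Mta2 thus went from the lowest mean of the 10 to the second highest.

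**Figure D1:**
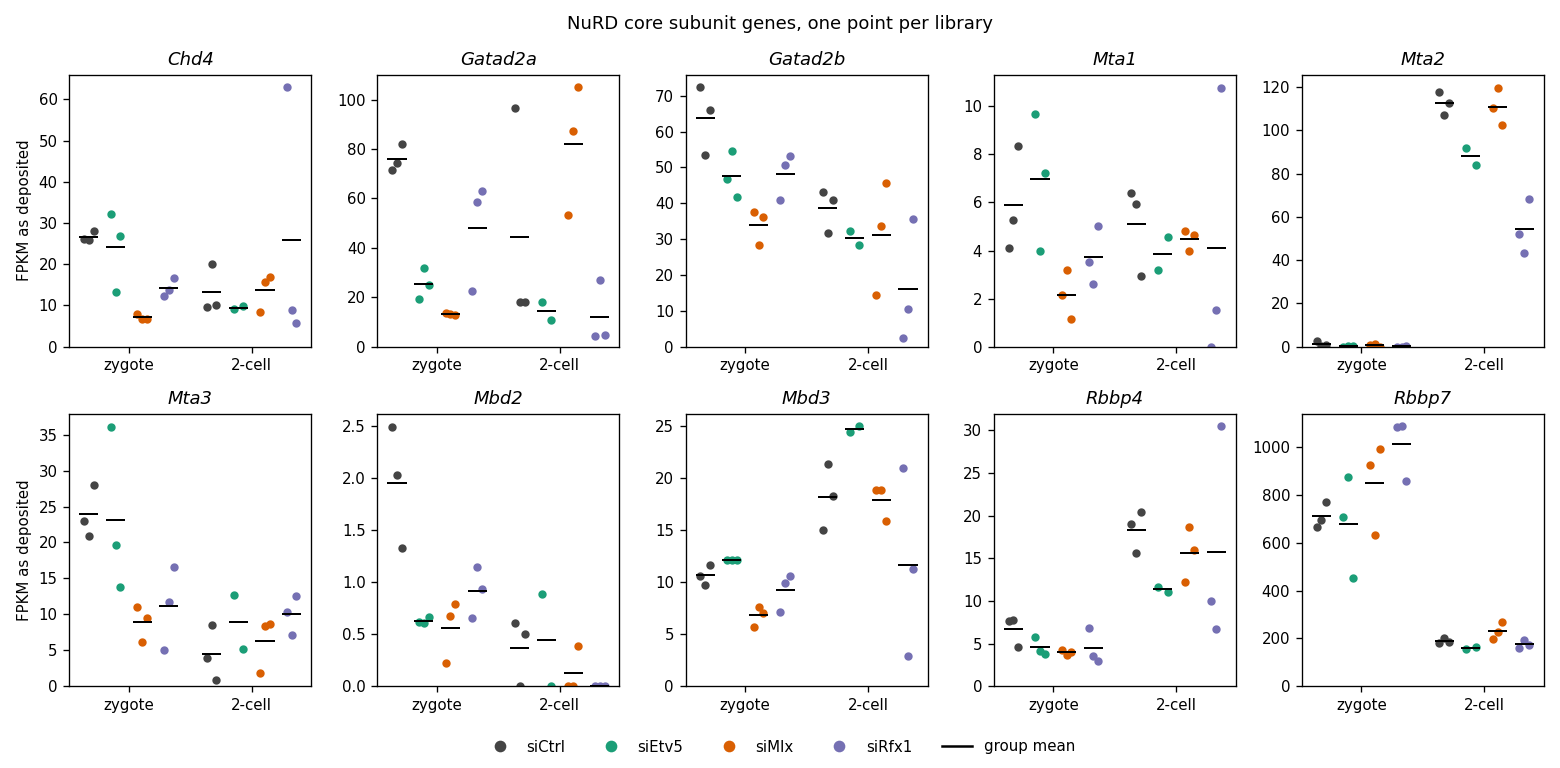
FPKM as deposited (y axes, a separate scale for each gene) of the 10 NuRD core genes in each library, with zygote groups on the left and 2-cell groups on the right of each panel, coloured by siRNA, 1 point per library and a black line at the group mean. Mta2 stood at 2.63 FPKM or less in every zygote library and at 43.4 or more in every 2-cell library, while Rbbp7 stood at 452 or more in zygotes and 267 or less at the 2-cell stage.

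The stage comparison asked which subunits rise or fall between the late zygote and the 2-cell embryo. It was made within each siRNA group, on log2(rescaled FPKM + 1), with limma across all genes and Benjamini-Hochberg adjustment. A gene was called where its adjusted p was under 0.05 and it differed by more than a fold of 2, and differences are 2-cell minus zygote. In siCtrl, 6 of 10 members were called (Mta2 and Rbbp4 higher, Rbbp7, Mta3, Chd4 and Mbd2 lower), where 63.9% of the 11094 genes tested were called, with 37.0% higher and 26.9% lower. The members' share was thus near that of all genes. On FPKM as deposited, without rescaling, member differences shifted by a median of 0.24 in this comparison, and by medians of -0.65 (siRfx1 2-cell against siCtrl) to 0.35 (stage in siMlx) over all comparisons. The median difference over the 10 members was -1.09, against 0.27 over all genes tested. In siEtv5, 4 of 9 members tested were called, with 60.9% of all genes. In siMlx it was 4 of 9, Gatad2a among them, with 64.5%, and in siRfx1 3 of 9 with 48.4%. Mbd2 was below the mean of 1 rescaled FPKM needed for a test in these 3 groups. The siCtrl and siMlx comparisons share their zygote libraries with the comparison that led to the choice of the genes, and the siEtv5 and siRfx1 ones do not. For Gatad2a and Chd4, on which the choice rested, differences that use siCtrl or siMlx zygotes are therefore given as descriptions, without a p. The counts of 6 in siCtrl and 4 in siMlx include Chd4 and Gatad2a, respectively. The choice can favour these calls, so the 2 counts are not independent of it.

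**Figure D2:**
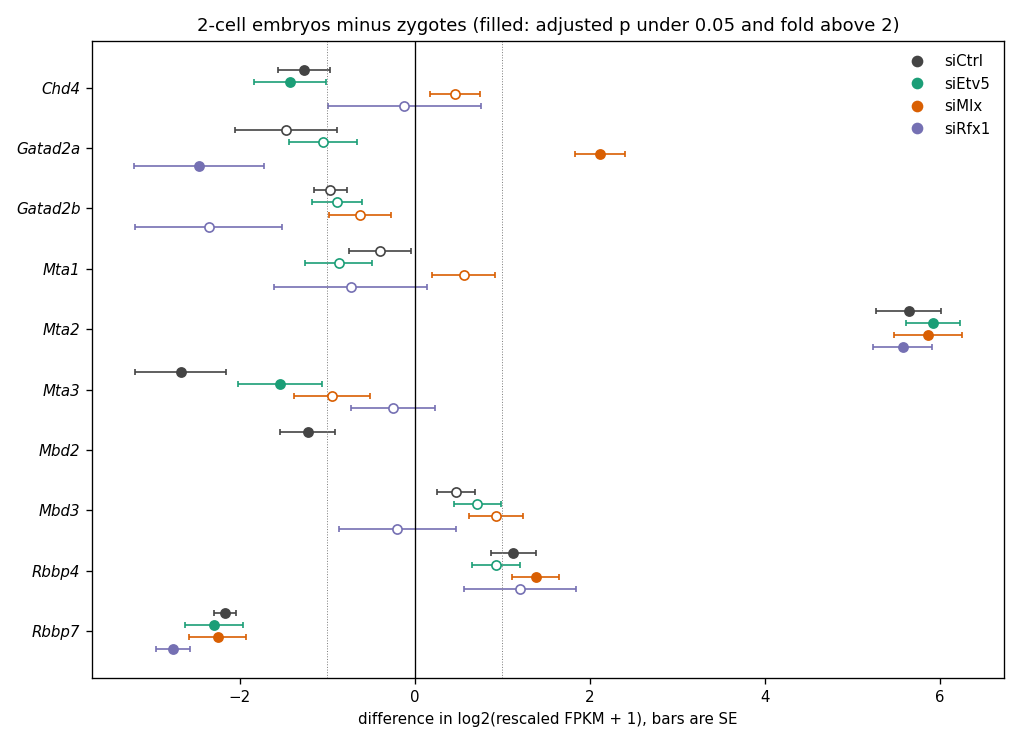
Difference between 2-cell embryos and zygotes of the same siRNA group in log2(rescaled FPKM + 1) (x axis) for each NuRD core gene (y axis), with bars of 1 standard error, filled points for called genes and dotted lines at a fold of 2 in each direction. Mta2 lay at 5.57 to 5.92 and Rbbp7 at -2.76 to -2.17 in the 4 siRNA groups, whereas Gatad2a lay at -2.47 to 2.12. The filled points of Chd4 in siCtrl and Gatad2a in siMlx use zygote libraries on which these genes were chosen and are descriptions.

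Mta2, a scaffold subunit that binds the deacetylases, was near absent in zygotes and abundant in 2-cell embryos in each siRNA group. The siCtrl zygotes had 2.63, 0.348 and 0.596 FPKM and the siCtrl 2-cell embryos 118, 107 and 113. In the other zygote groups the gene was at 0 to 1.21 FPKM, with 4 of 9 libraries listed at 0. In the other 2-cell groups it was at 91.7 and 84.2 FPKM (siEtv5), 110.5, 119.8 and 103 (siMlx) and 51.9, 43.4 and 68.4 (siRfx1). No zygote library reached any 2-cell library. The differences were 5.64 (SE 0.37, limma adjusted p = 8.81e-06) in siCtrl, 5.92 (SE 0.31, 6.7e-05) in siEtv5, 5.87 (SE 0.39, 1.06e-05) in siMlx and 5.57 (SE 0.34, 0.000279) in siRfx1. The rise was seen in the 3 exons given here, from the first to the last of 18, of which 7 had a mean coverage of 1 or more. In siCtrl 2-cell embryos the last exon (chr19, 9025980 to 9026790, 811 bases) was covered at 296, 316 and 329 on the FPKM scale, exon 14 (9023441 to 9023669) at 124, 96.5 and 92.9, and the first exon (9016410 to 9016872) at 175, 110.3 and 109. In zygotes the same 3 exons were at 0 to 6.89.

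Mta3, another scaffold of the same family, had the opposite direction in siCtrl. Its levels were 22.98, 20.9 and 28.0 FPKM in siCtrl zygotes and 3.92, 8.57 and 0.906 in siCtrl 2-cell embryos, without overlap, a difference of -2.68 (SE 0.52, limma adjusted p = 0.0021). In siEtv5 it was 36.1, 19.7 and 13.8 FPKM in zygotes and 12.6 and 5.14 in 2-cell embryos, a difference of -1.54 (SE 0.48, adjusted p = 0.0301). The siEtv5 call was lost without zygote replicate 1 (adjusted p = 0.0743) or without either 2-cell library (0.0715 and 0.269). It did not pass in siMlx (-0.95, SE 0.43, adjusted p = 0.0814) or in siRfx1 (-0.25, SE 0.48, adjusted p = 0.687), where the zygotes were already at 5.06 to 16.6 FPKM. Mta1, the third scaffold, passed in none of the 4 groups. It stood at 4.10, 5.27 and 8.37 FPKM in siCtrl zygotes and 6.38, 5.95 and 2.96 in siCtrl 2-cell embryos (difference -0.40, SE 0.35, adjusted p = 0.33).

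The Mta3 reads were also assigned to different transcripts at the 2 stages. Nearly all of the Mta3 FPKM of siCtrl zygotes (22.8, 20.9 and 28.0) was assigned to a transcript of 1730 bases that ends at position 84192217 of chr17, and this transcript was at 0 in all 3 siCtrl 2-cell libraries. These had 3.92, 8.57 and 0.906 FPKM of a transcript of 2673 bases that ends at 84204762, which was at 0.169, 0 and 0 in the siCtrl zygotes. Exceptions were 1 siRfx1 zygote library, with 5.06 FPKM of the long transcript and 0 of the short one, and 1 siEtv5 and 1 siRfx1 2-cell library with 10.1 and 12.6 FPKM of the short one. Of the 21 Mta3 exons, 4 had a mean coverage of 1 or more. A median of 93.4% of the Mta3 bases over the 23 libraries lay in the terminal exon of the short transcript (84191882 to 84192217, 336 bases). The Mta3 level of siCtrl zygotes thus mostly reflects that exon, and coverage of the rest of the transcript was not resolved. This terminal exon had a mean coverage of 117, 107 and 144 on the FPKM scale in siCtrl zygotes and 0 in siCtrl 2-cell embryos. An inner exon of the long transcript (84191882 to 84192104, 223 bases) starts at the same base, lies within it, and was covered at 34.3, 68.7 and 0.363 in siCtrl 2-cell embryos. Counted without terminal exons, Mta3 went the other way, to 2.62 higher in siCtrl 2-cell embryos (adjusted p = 0.0093), a count that leaves the first of these exons out and keeps the second. The exon at 84174922 to 84175110 (189 bases) had no coverage in any of the 12 zygote libraries, and 12.4, 30.9 and 11.6 in siCtrl 2-cell embryos. Exons of up to 200 bases in general had no coverage in 91.7 to 93.8% of cases in zygote libraries and in 79.9 to 81.8% in siCtrl 2-cell libraries, and its part in that exon's difference was not tested.

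Set against each other, the scaffold genes changed places by FPKM. Mta3 made up 77.3% ± 1.52 (SD, n = 3) of the summed Mta FPKM in siCtrl zygotes and Mta2 3.93%. In siCtrl 2-cell embryos Mta2 made up 92.2% ± 4.32 (n = 3) and Mta3 3.63%. The other groups had the same order. Mta3 held 74.9% ± 9.25 of it in siEtv5, 75.3% ± 15.9 in siMlx and 72.4% ± 11.9 in siRfx1 zygotes (n = 3 each). Mta2 held 87.5% ± 3.11 (n = 2), 91.2% ± 2.95 (n = 3) and 80.4% ± 5.11 (n = 3) in the matching 2-cell groups. The share of Mta1 was 18.8 to 27.4% in the zygote groups and 3.70 to 4.88% in the 2-cell groups.

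**Figure D3:**
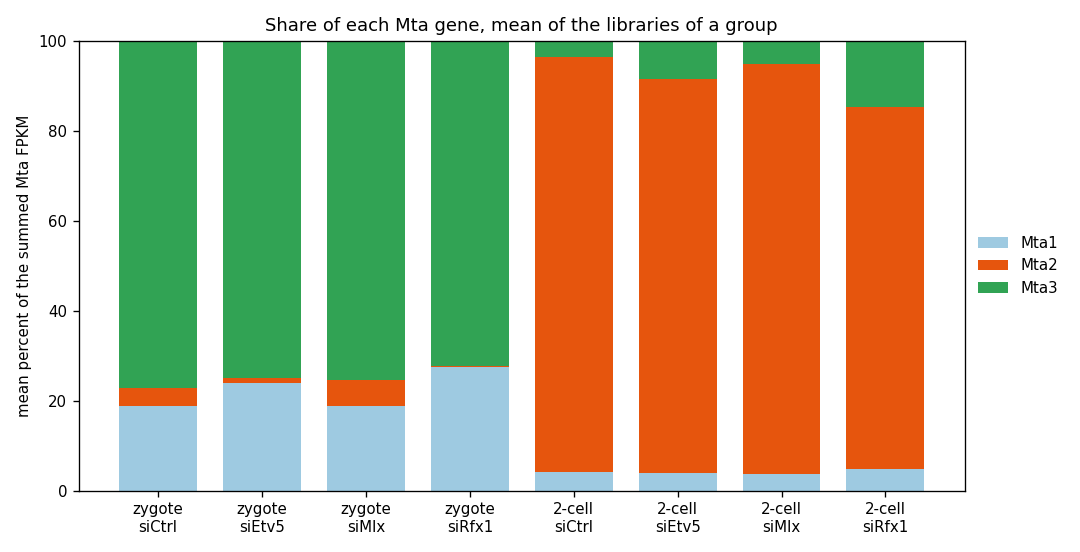
Mean percent of the summed FPKM of Mta1, Mta2 and Mta3 (y axis) in each of the 8 stage and siRNA groups (x axis), stacked to 100. Mta3 took 72.4 to 77.3% in the zygote groups and Mta2 80.4 to 92.2% in the 2-cell groups. The zygote shares of Mta1 and Mta3 rest mostly on 3′ exons.

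The histone-binding subunits moved in opposite directions. Rbbp7 was the most abundant member in every library, at 667, 696 and 772 FPKM in siCtrl zygotes and 181, 202 and 183 in siCtrl 2-cell embryos, a difference of -2.17 (SE 0.13, limma adjusted p = 6.28e-06). It fell in the 3 KD groups as well, by 2.29 (SE 0.33, adjusted p = 0.00138) in siEtv5, 2.26 (SE 0.33, 0.000384) in siMlx and 2.76 (SE 0.19, 0.000333) in siRfx1. The lower level was present at both ends of the transcript. The first exon (chrX, 159198304 to 159198639, 336 bases) went from 2565, 2824 and 3434 on the FPKM scale to 438, 565 and 456, and the last exon (159216280 to 159217022, 743 bases) from 878, 812 and 807 to 313, 328 and 309. The 3′ end of Rbbp7 overlaps Txlng on the other strand, and the libraries do not separate strands.

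Rbbp4, at 7.60, 7.76 and 4.59 FPKM in siCtrl zygotes, reached 19.0, 15.6 and 20.4 in siCtrl 2-cell embryos, without overlap, a difference of 1.12 (SE 0.26, limma adjusted p = 0.00478). Without siCtrl zygote replicate 3 it was 0.85 (adjusted p = 0.0231), under a fold of 2. The rise was also called in siMlx (1.38, SE 0.27, adjusted p = 0.0019). In siEtv5 it was 0.93 (SE 0.28, adjusted p = 0.0246), under a fold of 2, and in siRfx1 1.202 (SE 0.64, adjusted p = 0.169). Most Rbbp4 bases lay in its last exon (3058 bases), with a median of 92.3% over the 23 libraries. Rbbp4 remained the minor gene of the pair. Its share of the summed Rbbp4 and Rbbp7 FPKM was 0.940% ± 0.302 (SD, n = 3) in siCtrl zygotes and 8.89% ± 1.52 (n = 3) in siCtrl 2-cell embryos.

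Chd4, the ATPase, was at 26.1, 25.8 and 28.0 FPKM in siCtrl zygotes and 9.70, 20.1 and 10.1 in siCtrl 2-cell embryos, a difference of -1.27 (SE 0.29) without overlap. In siEtv5 it was at 32.2, 13.3 and 26.8 FPKM in zygotes and 9.05 and 9.86 in 2-cell embryos, a difference of -1.43 (SE 0.41, limma adjusted p = 0.0222). Without 1 of the siEtv5 libraries, other than zygote replicate 2, Chd4 was no longer called there, with adjusted p-values of 0.0545 to 0.184. In siMlx, where the zygotes were already at 6.62 to 7.95 FPKM, the difference was 0.46 (SE 0.28). In siRfx1 the 2-cell libraries ranged from 5.68 to 63.1 FPKM and the difference of -0.12 had an SE of 0.87. Most Chd4 bases lay in the last of its 39 exons (chr6, 125079838 to 125080519, 682 bases), with a median of 74.6% over the 23 libraries.

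The linker subunits were less uniform between libraries. Gatad2b was at 72.3, 53.5 and 65.9 FPKM in siCtrl zygotes and 43.2, 31.8 and 40.8 in siCtrl 2-cell embryos. The groups did not overlap, and the difference of -0.96 (SE 0.19, limma adjusted p = 0.00233) was under a fold of 2. Gatad2a was at 71.6, 74.5 and 82.2 FPKM in siCtrl zygotes and at 96.5, 18.2 and 18.04 in siCtrl 2-cell embryos. One library was thus above all zygotes and 2 were far below them, and the difference was -1.47 (SE 0.58), and -2.20 without the high library. In siMlx Gatad2a was at 13.4, 13.2 and 12.9 FPKM in zygotes and 53.1, 87.5 and 105 in 2-cell embryos, a difference of 2.12 (SE 0.29) without overlap. In siRfx1 it fell, from 22.5, 58.7 and 63.2 to 4.19, 26.9 and 4.76 (-2.47, SE 0.75, limma adjusted p = 0.034). The siRfx1 fall was lost without any 1 of 5 of the 6 libraries (adjusted p = 0.0552 to 0.126). In siEtv5 the difference was -1.05 (SE 0.39, adjusted p = 0.0513). The Gatad2a stage differences moved with its last exon, which is described further on. Without that exon they were 0.34 in siCtrl, 1.13 in siMlx and -0.75 in siRfx1 (adjusted p = 0.456), against -2.88, 3.53 and -3.77 on the exon alone.

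The methyl-CpG-binding-domain subunits were the scarce pair. Mbd3 was at 10.6, 9.72 and 11.6 FPKM in siCtrl zygotes and 15.0, 21.4 and 18.3 in siCtrl 2-cell embryos, higher in all 3 libraries, with a difference of 0.47 (SE 0.22, limma adjusted p = 0.0799). In siMlx the difference was 0.93 (SE 0.31, adjusted p = 0.027), under a fold of 2. Mbd2 was at 2.49, 2.03 and 1.33 FPKM in siCtrl zygotes and 0.603, 0 and 0.503 in siCtrl 2-cell embryos, a difference of -1.22 (SE 0.31, adjusted p = 0.00844), and was listed at 0 in all 3 siRfx1 2-cell libraries. These levels are close to the threshold for testing, and without siCtrl 2-cell replicate 2 the Mbd2 difference was -0.997 (adjusted p = 0.0169), under a fold of 2. The share of Mbd2 in the summed Mbd2 and Mbd3 FPKM was 15.5% ± 4.64 (SD, n = 3) in siCtrl zygotes and 2.18% ± 1.98 (n = 3) in siCtrl 2-cell embryos.

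Markers of other cells moved with stage too. Summed FPKM of 10 cumulus and granulosa markers was 1.71 to 8.98 in the zygote libraries and 14.1 to 78.1 in the 2-cell libraries, where 3 to 4 of the 10 averaged 1 FPKM or more in a group and Ptx3, Inha and Fshr were at 0 in all of them. For leukocyte markers (3 of 4 found) the sums were 0 to 0.751 and 0 to 22.9, with Ptprc at 0 in every 2-cell library, and for 6 sperm markers 9.88 to 35.1 and 0 to 14.0, with Prm1 and Tnp2 at 0 throughout. The part of these cells in the stage differences was not tested. In bulk embryos, fewer transcripts per cell cannot be told apart from a change in the rest of the RNA, since FPKM is a share of a library. Difference and transcript length also moved together: over all genes in siCtrl the median difference went from 1.07 in the shortest of 5 equal length classes to -0.11 in the longest. With that trend removed, the 6 calls in siCtrl remained. Gatad2b was past the thresholds as well, and so was Gatad2a, with the limit of its choice given above.

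Of 47 tested partners of the core, 61.7% were called between stages in siCtrl, near the 63.9% of all genes. Of 7 tested deacetylases and accessory subunits, 3 rose and 2 fell in siCtrl. Cdk2ap1, a small NuRD-associated protein, went from 7.42 ± 4.07 to 341 ± 45.1 FPKM (SD, n = 3 each; log2 difference 5.20, limma adjusted p = 6.7e-06). Hdac1, a catalytic deacetylase, went from 0.950 ± 0.824 to 52.0 ± 0.929 FPKM (4.69, adjusted p = 2.1e-05), while Hdac2, its paralog, went from 51.1 ± 13.6 to 14.0 ± 1.45 (-2.01, adjusted p = 0.00018). Hdac1 and Hdac2 thus had opposite directions. Hdac1 and Cdk2ap1 rose in all 4 siRNA groups, and Hdac2 fell in 3 and was not called in siMlx. Of 7 tested genes on the list of NuRD-recruiting factors, 4 rose in siCtrl and none fell. Adnp, a zinc finger homeobox protein that partners CHD4, rose by 4.40 (adjusted p = 1.2e-05), Zfp296 by 3.11 (5.6e-06) and Zfp281 by 2.98 (0.00011). Of 4 tested CHD ATPases outside the members, Chd1 rose by 2.12 (adjusted p = 0.00011), and Chd6 and Chd9 fell by 1.60 (0.00063) and 1.38 (0.0037). Chd3 and Chd5, which can replace CHD4 in NuRD, averaged under 1 FPKM in every group. None of 5 tested relatives of MBD2 and MBD3 was called by limma, with 0 at an unadjusted p under 0.05, the lowest p being that of Mbd4 (-0.44, SE 0.26, adjusted p = 0.165). Of 24 tested subunits of other complexes that use RBBP4 or RBBP7, 8 rose and 9 fell, among them Ezh2, the Polycomb methyltransferase (-2.60, adjusted p = 0.00049), Lin52 (2.35, 6.8e-05) and Lin37 (-2.30, 0.021).

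The KD comparisons asked whether losing a factor moved the subunits within a stage. Leaving aside siMlx zygotes, none of the 9 members tested was called in any of the 5 comparisons with siCtrl. All genes gave 0.0% called in siEtv5 zygotes (12.4% of 8993 genes had an unadjusted p under 0.05), 0.0557% in siRfx1 zygotes, 0.251% in siEtv5, 0.00945% in siMlx and 3.56% in siRfx1 2-cell embryos. At an unadjusted p under 0.05 by limma, 2 members passed in siEtv5 zygotes (Gatad2a and Mbd2, with the 12.4% given above), 3 in siRfx1 zygotes (Chd4, Mta3 and Rbbp7), with 14.6% of all genes, 1 in siEtv5 2-cell embryos (Rbbp4), with 15.5%, 1 in siMlx 2-cell embryos (Gatad2a), with 18.7%, and 2 in siRfx1 2-cell embryos (Mta3 and Rbbp7), with 23.2%. The siCtrl zygotes are also the controls of the comparison on which Gatad2a and Chd4 were chosen, so the counts for zygotes are not independent of that choice. Mta2 was under the filter in the zygote comparisons and Mbd2 in the 2-cell ones. The members' median differences were -0.05, -0.40, -0.32, 0.24 and -0.26 in that order, against -0.01, 0.00, 0.04, -0.05 and -0.25 over all genes.

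**Figure D4:**
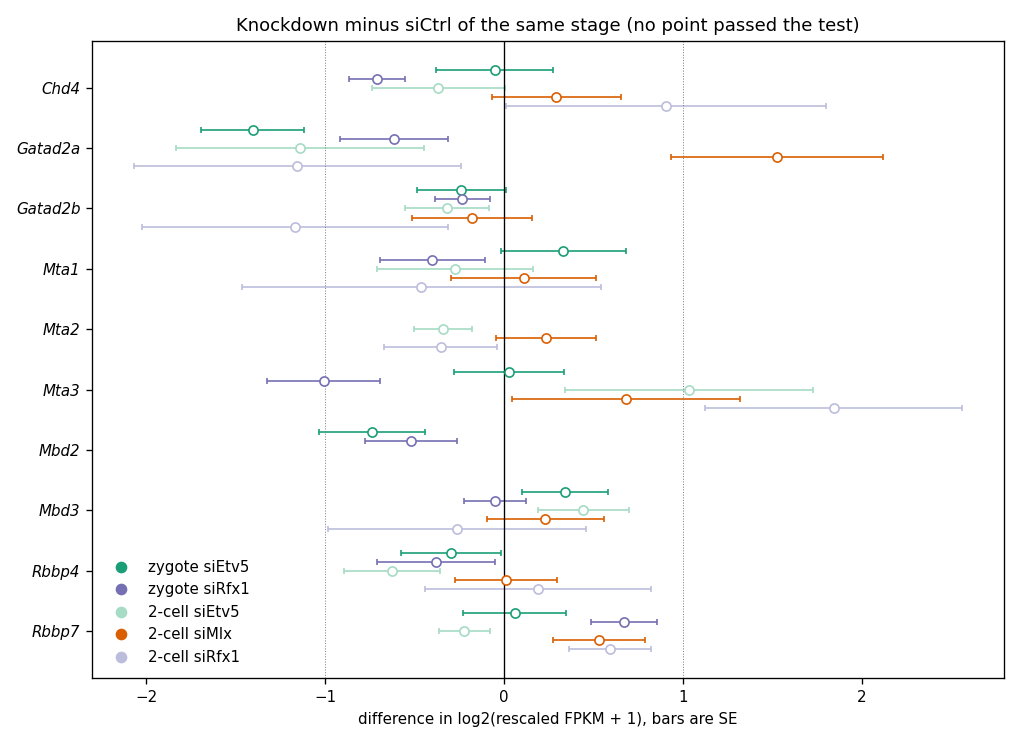
Difference between KD and siCtrl embryos of the same stage in log2(rescaled FPKM + 1) (x axis) for each NuRD core gene (y axis) in 5 comparisons, with bars of 1 standard error and dotted lines at a fold of 2 in each direction. No member passed the test, and the widest bars belong to siRfx1 2-cell embryos, with an SE of up to 1.00.

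In siEtv5 zygotes Gatad2a was the most different member, at 19.2, 31.8 and 24.8 FPKM against 71.6, 74.5 and 82.2 in siCtrl, with a difference of -1.40 (SE 0.29). All 3 KD libraries were below all controls, and Mbd2 was too (-0.74, limma adjusted p = 0.39), where 9.64% of all genes were below without overlap. The lower Gatad2a level lay in its last exon, described further on. Its other exons together went the other way, at 33.1, 55.6 and 43.7 on the FPKM scale against 16.6, 23.9 and 26.2 in siCtrl. Mbd3 was above all controls, at 12.1, 12.1 and 12.2 FPKM against 11.6 or less (0.34, adjusted p = 0.54), with 9.07% of all genes. In siRfx1 zygotes, Chd4 (12.3, 13.8 and 16.7 FPKM, difference -0.71, SE 0.16), Mta3 (5.06, 11.8 and 16.6, -1.01, SE 0.32, limma adjusted p = 0.26), Gatad2a (22.5, 58.7 and 63.2, -0.61, SE 0.30) and Mbd2 were below all controls. These are 4 of 9 members, with 12.0% of all genes, and Gatad2b joined them on FPKM as deposited. The other exons of Gatad2a together stood at 39.5, 26.5 and 33.6 there, not below siCtrl. Rbbp7 was above all controls, at 1085, 1091 and 860.5 FPKM (0.67, SE 0.19, adjusted p = 0.24), with 9.8% of all genes.

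At the 2-cell stage, siEtv5 embryos had Gatad2a (17.9 and 10.6 FPKM), Mta2 (91.7 and 84.2), Rbbp4 (11.6 and 11.1) and Rbbp7 (157 and 163) below all controls, with 16.7% of all genes. The largest of these was -1.14 (SE 0.70, limma adjusted p = 0.47) for Gatad2a. Mbd3 was above all controls, at 24.5 and 25.03 FPKM (0.44, adjusted p = 0.44), with 19.0% of all genes. In siMlx embryos no member was below all controls, and Rbbp7 was above them after rescaling (0.53, SE 0.26, adjusted p = 0.30), with 10.9% of all genes. As deposited Rbbp7 was at 196, 226 and 267 FPKM against 181, 202 and 183, with overlap. Gatad2a stood at 53.1, 87.5 and 105 FPKM there, within reach of the highest control at 96.5 (1.53, SE 0.59, adjusted p = 0.23). In siRfx1 embryos, the shallow libraries, Mta3 (10.3, 7.12 and 12.6 FPKM, 1.84, SE 0.72, adjusted p = 0.18) and Rbbp7 (159, 192 and 173 FPKM, 0.59, SE 0.23, adjusted p = 0.18) lay above all controls after rescaling, with 10.4% of all genes. As deposited both overlapped the controls, the Rbbp7 difference was -0.11, and Mta2 (51.9, 43.4 and 68.4 FPKM) was below all controls. Differences of 1 or less could not be resolved for most members there, with SEs from 0.23 to 1.00.

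Whether a KD acted differently at the 2 stages was tested as the difference of the 2 effects. For siEtv5 no member of 9 passed, with 0.316% of 11060 genes and 18.1% at an unadjusted p under 0.05. For siRfx1, 1 of 9 passed, with 9.96% of 10780 genes. This was Mta3, at 2.60 (SE 0.75, limma adjusted p = 0.0497). Its effects were -1.01 in zygotes and 1.84 in 2-cell embryos. These come from separate fits, each with its own rescaling, and do not subtract exactly to 2.60. The call rests on the shallow siRfx1 2-cell libraries and did not pass in 9 of the 12 fits that leave out a library (adjusted p = 0.0521 to 0.113). It passed without 2-cell siCtrl replicate 2 or without siRfx1 2-cell replicate 1 or 2.

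In siMlx zygotes the description is as follows, with no test since it led to the choice of the genes. Chd4 and Gatad2a, the ATPase and 1 of its linkers, were chosen because they were low here, so no call is given for them. Over all 8934 genes, 2.15% were past the thresholds. After rescaling 5 members (Chd4, Gatad2a, Gatad2b, Mta3 and Mbd2) lay below all controls, as did 17.3% of genes. On FPKM as deposited it was 8, with Mta1, Mbd3 and Rbbp4 as well. In FPKM after rescaling, Chd4 was at 23.6 ± 1.48 (SD, n = 3) in siCtrl and 7.98 ± 0.502 in siMlx, a difference of -1.46, and Gatad2a at 67.5 ± 6.397 and 14.9 ± 1.08, a difference of -2.10. Lower by less were Mta3 (-1.04), Mta1 (-0.87), Mbd2 (-0.73) and Gatad2b (-0.54). Mbd3 (-0.27) and Rbbp4 (-0.30) were closer to 0, and Rbbp7 was at 0.59 and, after rescaling only, above all controls, as 14.5% of genes were. Over all genes of this comparison the median difference went from 0.23 in the shortest of 5 length classes to -0.20 in the longest, to which Chd4 and Gatad2a belong. With that trend removed they stood at -1.25 and -1.94. On FPKM as deposited they stood at -1.78 and -2.44, and Rbbp7 at 0.23. Against siEtv5 zygotes in place of siCtrl, Chd4 was at -1.40 and Gatad2a at -0.70. The difference of the siMlx effect between the stages was 3.59 for Gatad2a and 1.71 for Chd4.

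For Chd4 the lower coverage in siMlx zygotes was not confined to the last exon, and the difference was smaller at the first. Of its 39 exons, 12 had a mean coverage of 1 or more. The last exon was at 175, 180.0 and 191 on the FPKM scale in siCtrl zygotes and 53.0, 44.0 and 43.4 in siMlx. Exon 24 (125063918 to 125064155, 238 bases) was at 60.0, 57.0 and 66.1 against 14.6, 13.5 and 20.9. The first exon (98 bases) was at 54.4, 80.1 and 84.0 against 45.6, 54.8 and 56.5, which overlapped. The Chd4 difference was -1.56 without the last exon and -1.27 on the last exon alone.

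For Gatad2a the difference lay in the last exon (chr8, 72430968 to 72433873, minus strand, 2906 bases), which holds the final 128 coding bases and a 3′ UTR of 2778 bases in GENCODE vM1. In siCtrl zygotes it was covered at 112, 111 and 122 on the FPKM scale, and in siMlx zygotes at 1.17, 1.11 and 2.24. The other exons together stood at 22.2 ± 5.02 (SD, n = 3) in siCtrl and 23.2 ± 1.12 in siMlx, and the first exon (437 bases) at 45.7, 84.6 and 91.7 against 95.6, 98.9 and 93.8. The Gatad2a difference in siMlx zygotes was -5.02 on the last exon alone and -0.04 without it.

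The same exon was high or low in libraries of other groups. In siEtv5 zygotes it was at 2.86, 4.13 and 2.87, while the other exons together stood at 44.2 ± 11.3, above all siCtrl zygotes. The siEtv5 difference on this exon alone was -4.44, a description of an exon picked for its coverage. In siRfx1 zygotes it was at 2.77, 80.1 and 81.3, in siCtrl 2-cell embryos at 143, 4.67 and 8.71, in siEtv5 2-cell embryos at 8.46 and 3.19, in siMlx 2-cell embryos at 2.99, 115 and 148, and in siRfx1 2-cell embryos at 2.18, 2.73 and 1.78. Of the 23 libraries, 15 were at 1.11 to 8.71 and 8 at 80.1 to 148, with none between. Thus 3 groups held libraries of both kinds, and the Gatad2a levels of siCtrl 2-cell and siRfx1 zygote libraries followed this exon. Among 7226 exons at 20 or more in every siCtrl zygote, a rule set after Gatad2a had been seen, 0.277% were under 5% of every control in all siMlx zygotes, 0.125% in all siEtv5 and 0.0969% in all siRfx1 zygotes.

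**Figure D5:**
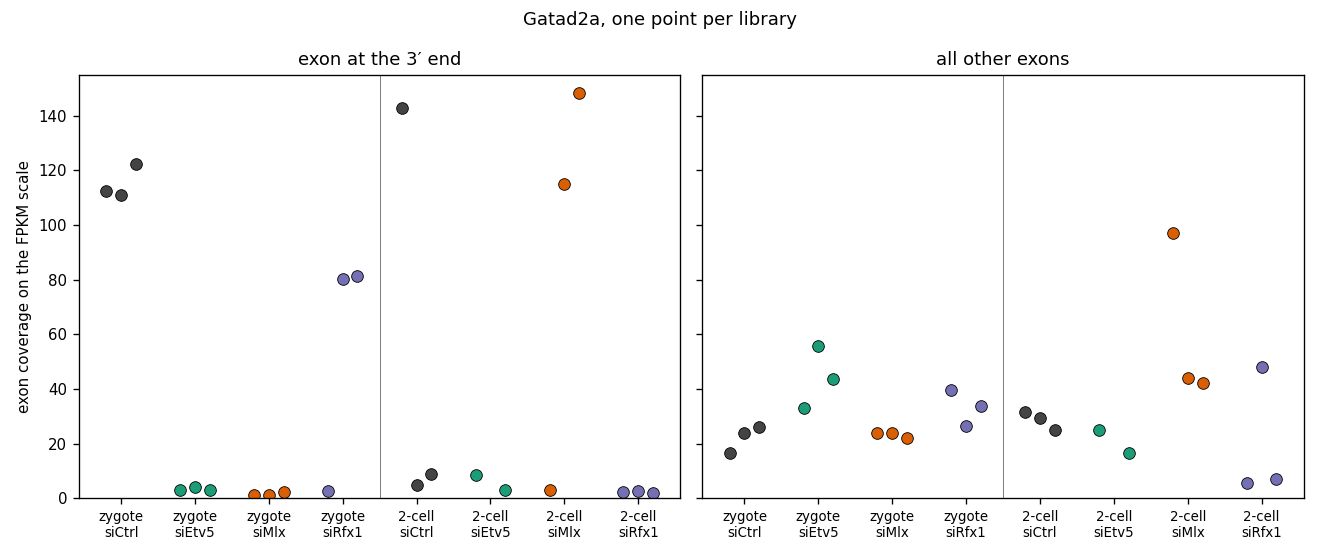
Coverage of Gatad2a on the FPKM scale (y axis) in the last exon (left) and in all other exons together (right) by stage and siRNA group (x axis), 1 point per library. The last exon was at 80.1 to 148 in 8 libraries and at 1.11 to 8.71 in 15, with siCtrl zygotes all high and siMlx and siEtv5 zygotes all low.

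The balance of the linker genes varied between groups and with the way it was counted. Gatad2a made up 54.5% ± 4.34 (SD, n = 3) of the summed Gatad2a and Gatad2b FPKM in siCtrl zygotes, 34.4% ± 4.61 in siEtv5, 28.1% ± 3.18 in siMlx and 47.9% ± 10.7 in siRfx1. At the 2-cell stage it made up 45.4% ± 20.7 in siCtrl, 31.5% ± 5.86 (n = 2) in siEtv5, 73.5% ± 4.59 in siMlx and 49.5% ± 32.9 in siRfx1 (n = 3 each). Counted as aligned bases, which are not divided by length, Gatad2a made up 76.5% in siCtrl, 58.7% in siEtv5, 51.6% in siMlx and 70.9% in siRfx1 zygotes, and thus more than Gatad2b in each. Without the last exon, Gatad2a differed by -0.04 between siMlx and siCtrl zygotes.

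Among the partner lists, no gene was called by limma in any zygote KD comparison or in siEtv5 and siMlx 2-cell embryos. At an unadjusted p under 0.05 by limma there were 0 to 5 genes of a list, with 4 to 24 tested. The highest share was 4 of 7 deacetylases and accessory subunits in siEtv5 2-cell embryos, with 15.5% of all genes. All genes gave 12.4% in siEtv5 zygotes, 14.6% in siRfx1 zygotes and 18.7% in siMlx 2-cell embryos. The share for siMlx zygotes is not given here. In siRfx1 2-cell embryos, Zfp296 was lower (-1.19, limma adjusted p = 0.038), and Eed, a Polycomb subunit (1.77, 0.042), and Chaf1a, a chromatin assembly subunit (2.30, 0.021), were higher. These are 3 of 45 partners tested, or 6.67%, where 3.56% of all genes were called.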

How the data were processed

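RNA-seq was made from late zygotes and 2-cell embryos, with reverse transcription, cDNA amplification and a kit that does not mark strand. The authors aligned reads to mm9 with STAR (2.5.2b) and quantified RefSeq transcripts with StringTie (1.3.4 in the submitters' notes, 1.3.3b in the file headers). The deposited values are FPKM and coverage per transcript and exon. The authors' counts, which they tested with edgeR, were not analysed here. FPKM was summed per gene name, and 976 transcripts of 29306 without a name (0.610 to 1.48% of FPKM) were left out. Coverage divided by FPKM gave the aligned bases. Reads are amplified and carry no molecular identifiers.

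Within a comparison, each library was divided by its median ratio to the others, taken over genes that reach 1 FPKM. Genes with a mean of 1 or more were tested as log2(rescaled FPKM + 1), which understates changes of low genes, with limma 3.58.1 in R 4.3.3 (trend option on, compared libraries only), with Benjamini-Hochberg adjustment, and checked on simulated data. The 10 members and the partner lists were chosen with earlier results of these data known. All members are named, and from each partner list counts and up to 3 called genes with the largest difference, or with no call the gene of lowest p. For each of Gatad2a and Chd4, the 3 genes with the nearest profile over the 8 group means are named, among genes at a mean of 5 or more. Exon coverage on the FPKM scale is coverage times the library's ratio of FPKM to coverage. Alternatives were another pseudocount, filter, scaling and fit, exon-level versions, a replicate block and leaving out each library. All 210 member introns had GT-AG ends in the mm9 genome used. The design had assumed FPKM, as found.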

Additional observations from a re-analysis of the deposited data

Results flagged for a closer look

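One result differed between the stages by a test of the difference itself. The siRfx1 effect on Mta3 was 2.60 higher on the log2 scale at the 2-cell stage than in zygotes (limma adjusted p = 0.0497). Mta3 was below all siCtrl libraries in all 3 siRfx1 zygote libraries, and above them after rescaling in all 3 siRfx1 2-cell libraries, which are the shallowest of the series. It went to -0.47 without 3′ exons, did not pass under 6 other settings, those without or with only 3′ exons included, and did not pass in 9 of the 12 fits that leave out a library. The part of depth in this result was not tested.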

How the results depend on the processing

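Calls of members were counted under each alternative. In siCtrl, 6 members were called between stages, and 5 to 7 when 1 library was left out. In siEtv5 the count of 4 went to 7 with the length trend removed and to 2 to 5 without 1 library. It was 2 without either 2-cell siEtv5 library, where the lone library is assumed to vary like the others. In siMlx the count of 4 went to 7 on 3′ exons only and to 4 to 5 without 1 library. In siRfx1 the count of 3 went to 5 with all libraries in 1 fit and to 2 to 4 without 1 library. In siEtv5 zygotes the count of 0 went to 1 (Gatad2a, with the limit of its choice) on 3′ exons only and to 0 to 1 without 1 library. The other 4 comparisons between KD and siCtrl and the siEtv5 difference between stages kept a count of 0 throughout. The 1 call of the siRfx1 difference between stages (Mta3) went to 0 with a pseudocount of 0.1, without a filter, on FPKM as deposited, with the replicate block, without 3′ exons and on 3′ exons only, and to 0 to 1 without 1 library. On FPKM as deposited, 13 member differences that were not called changed sign. Leaving out 1 library added calls of Gatad2b in siCtrl (-1.13 without zygote replicate 2), Gatad2a and Rbbp4 (-1.31 and 1.003 without zygote replicate 1) and Mta1 (-1.23 without zygote replicate 2) in siEtv5, Mbd3 in siMlx (1.12 without 2-cell replicate 3) and Gatad2b and Mta1 in siRfx1 (-3.18 and -1.65 without 2-cell replicate 3). Without 3′ exons Mta3 reversed: between stages to 2.62 in siCtrl, 2.97 in siEtv5 and 3.13 in siMlx, and for the siRfx1 difference to -0.47. In the paired fit with the replicate block the counts were 7 in siCtrl, 4 in siEtv5, 4 in siMlx and 3 in siRfx1. Same-numbered libraries correlated at -0.13 to 0.27 in their deviations. With so few libraries per group, this cannot show whether they share an origin, which the labels do not give. Of 48 subunit shares, 23 moved by more than their SD when computed from aligned bases. Other causes were not tested. The depth of siRfx1 2-cell embryos limits what could be resolved there.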

Other observations

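By the distance between profiles over the 8 group means of log2(rescaled FPKM + 1), each centred on its own mean, the genes nearest to Gatad2a among 6942 were Stoml2 (root-mean-square distance 0.591), Ambra1 (0.610) and Susd3 (0.621). The nearest to Chd4 were Mier2 (0.244), Sart3 (0.273) and Scap (0.279). The distances for Chd4 were smaller than those for Gatad2a.

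Between stages, 26 of 46 partners tested were called in siEtv5, 27 of 44 in siMlx and 26 of 45 in siRfx1, or 56.5%, 61.4% and 57.8%, where 60.9%, 64.5% and 48.4% of all genes were. Of the deacetylases and accessory subunits, 3 rose and 2 fell in siEtv5 and in siRfx1, and 3 rose and 1 fell in siMlx. Of the other complexes with RBBP4 or RBBP7, 7 rose and 7 fell in siEtv5, 8 and 7 in siMlx, and 5 and 7 in siRfx1. Of the recruiting factors, 2 rose and 1 fell in siEtv5, 3 and 0 in siMlx, and 4 and 1 in siRfx1. Of the CHD ATPases, 1 rose and 1 fell in siEtv5, 2 and 2 in siMlx, and 2 and 1 in siRfx1. Of the MBD relatives, 1 rose and 1 fell in siEtv5, and Mbd4 fell in siMlx and in siRfx1.

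The siRfx1 effect differed between stages for 5 of 45 partners tested, or 11.1%, where 9.96% of all genes passed: Zfp296 (-1.79, limma adjusted p = 0.0056), Chd8 (1.81, 0.017), Chaf1a (1.65, 0.032), Chaf1b (-2.51, 0.032) and Bptf (1.31, 0.04997).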
